A study of Mus musculus with 12 samples.

Results

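The brain's chondroitin sulfate matrix was followed here through 8 genes, chosen by symbol: the lecticans Ncan (ENSMUSG00000002341), Bcan (ENSMUSG00000004892) and Vcan (ENSMUSG00000021614), the link protein Hapln1 (ENSMUSG00000021613), the tenascins Tnc (ENSMUSG00000028364) and Tnr (ENSMUSG00000015829), and the transmembrane proteoglycans Ptprz1 (ENSMUSG00000068748) and Cspg5 (ENSMUSG00000032482). They are 8 of the 37620 genes counted. RNA was sequenced in 12 libraries of neural stem cells, 3 in each of 4 groups: cells lacking E12 (E12KO, E12-/-), wild-type cells from litter mates of that line (E12wt, E12+/+), cells lacking E47 (E47KO, E47-/-) and wild-type cells from litter mates of that line (E47wt, E47+/+). All were C57BL/6J cells from embryos at stage E14.5, kept dividing in culture with FGF-2 and EGF at 20 ng/ml each, with no further treatment. E12 and E47 are both E proteins, transcription factors with a basic helix-loop-helix domain, and alternative splicing of Tcf3 yields them. The labels do not say how either allele was made or whether replicates are different embryos or repeat cultures, so p-values measure the spread between these libraries, which may be technical.

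The matrix between brain cells is built on hyaluronan, a long sugar chain without a protein core. Lecticans bind hyaluronan at one end and tenascins at the other, link proteins lock the lectican to the chain, and chondroitin sulfate chains hang from the lectican core. Radial glia and cultured neural stem cells are known to make Tnc and Ptprz1, while Tnr is made mostly by cells of the oligodendrocyte lineage and Bcan mostly by astrocytes and oligodendrocyte precursors.

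E proteins are known to bind the E-box, written CANNTG, and to favour CACCTG, which reads CAGGTG on the other strand. The 250 bases before the annotated start are shown for Tnc and Tnr, the genes with the largest fitted differences in E12KO cells, and for Ncan, whose stretch holds the most E-boxes of these genes. The sequences are from RefSeq (GRCm38.p6), all on the strand of the gene, 5′ to 3′, with every CANNTG in capitals. They cover chr4:64047016-64047265 (minus strand) for Tnc, the upstream of its 2 annotated starts, chr1:159523519-159523768 (plus strand) for Tnr and chr8:70120845-70121094 (minus strand) for Ncan.
Tnc: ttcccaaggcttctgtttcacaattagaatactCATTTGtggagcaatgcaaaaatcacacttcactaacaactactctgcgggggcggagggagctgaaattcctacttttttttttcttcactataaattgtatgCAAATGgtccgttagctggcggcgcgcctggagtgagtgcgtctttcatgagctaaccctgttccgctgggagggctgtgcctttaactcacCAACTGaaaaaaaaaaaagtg
Tnr: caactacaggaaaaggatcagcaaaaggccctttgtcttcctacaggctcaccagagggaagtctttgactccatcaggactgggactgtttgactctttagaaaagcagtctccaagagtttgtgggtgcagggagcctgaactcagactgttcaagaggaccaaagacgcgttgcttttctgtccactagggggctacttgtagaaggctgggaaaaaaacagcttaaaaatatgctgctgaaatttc
Ncan: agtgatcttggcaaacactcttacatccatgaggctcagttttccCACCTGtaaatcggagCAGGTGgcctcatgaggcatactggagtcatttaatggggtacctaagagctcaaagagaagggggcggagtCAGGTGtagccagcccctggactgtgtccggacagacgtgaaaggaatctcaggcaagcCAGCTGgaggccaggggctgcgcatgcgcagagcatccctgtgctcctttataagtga

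RefSeq gave such a stretch for 7 of the 8 genes. The bases just after the RefSeq start lay near the beginning of a GENCODE transcript of the gene for 4 of them, Ncan, Tnc, Tnr and Ptprz1, and were not found there for Bcan, Vcan and Hapln1. CANNTG, which reads the same on both strands, stood in the stretches of 3 of the 7. The Ncan stretch held 4, with first letters 205, 189, 117 and 58 bases before the start. The first of these was CACCTG, the next pair were both CAGGTG, and the one nearest the start was CAGCTG. Of the 32851 stretches of this length in the table, 66.2% held at least 1 CANNTG, 3.84% held at least 4, 17.2% held CACCTG or CAGGTG at least once and 0.247% held these at least 3 times, as Ncan did. The Tnc stretch held 3 such E-boxes, whose first letters lay 217, 113 and 21 bases before the start and none of which was CACCTG or its reverse complement, and 12.2% of all stretches held at least 3. Vcan held 1. Bcan, Hapln1, Tnr and Ptprz1 had none in this window. A match of letters is a description of the sequence and not a binding site. In the RefSeq gene order Hapln1 lies next to Vcan on chromosome 13, Hapln2 next to Bcan on chromosome 3 and Hapln4 next to Ncan on chromosome 8.

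The libraries held 34515297 to 56835783 reads on genes on the strand used for counting, and 97.1 to 97.2% of the reads assigned to either strand lay on that strand. All 10 listed neural stem cell and radial glia markers, among them Nes, Sox2 and Fabp7, lay above 1 CPM (reads per 1000000 gene reads, TMM-scaled), with summed levels of 7442 to 8648 CPM over the 12 libraries, while the 5 microglial markers summed to 0.439 to 1.12 CPM, mostly P2ry12, and the 4 endothelial markers to 1.63 to 5.42 CPM, mostly Kdr. The microglial Aif1 and Cx3cr1 and the endothelial Cldn5 had at most 0.0477 CPM. Markers of other neural cells were not absent. Over the 12 libraries the neuronal list summed to 1094 to 1437 CPM, the oligodendrocyte lineage list to 908 to 1528 CPM and the astrocyte list to 447 to 1014 CPM. Tcf3, counted over both splice forms and so no check of the labels, had 92.0, 72.9 and 101 CPM in E12KO and 77.1, 82.4 and 75.8 CPM in E12wt libraries, and 117, 113 and 106 CPM in E47KO and 84.2, 75.8 and 97.1 CPM in E47wt libraries. E47KO replicate 2 lay at 73.6 and E12wt replicate 3 at −30.5 on the first principal component (31.2% of the variance), with the other 10 libraries between −16.0 and 14.7. Xist and Y-linked reads marked all E12KO and E12wt libraries and E47wt replicates 1 and 3 as female, and all E47KO libraries and E47wt replicate 2 as male. By these reads, the E47wt libraries do not all come from 1 embryo. In the E47 comparison, sex and genotype can be told apart only through the 1 male wild-type library.

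Per kilobase of exon, 4 of the matrix genes lay well above the others. Ptprz1, a receptor tyrosine phosphatase whose secreted form is phosphacan, averaged 171 CPM per kb over the 12 libraries, with a within-group SD of 18.02. Bcan, the brain-specific lectican brevican, averaged 157 ± 42.0, Ncan, the neural lectican neurocan, 136 ± 21.1, and Tnc, an anti-adhesive glycoprotein of germinal zones, 111 ± 24.2 CPM per kb. These 4 lay between percentiles 99.0 and 99.4 of the 32897 genes with a length. Vcan, the widely made lectican versican, averaged 14.1 ± 1.54 CPM per kb and Cspg5, or neuroglycan C, 13.5 ± 2.27 CPM per kb. Tnr, the tenascin of oligodendrocytes and perineuronal nets, averaged 1.77 ± 0.490 CPM per kb. Vcan, Cspg5 and Tnr lay at percentiles 88.7, 88.2 and 69.2. The genes ranked include many with almost no reads: Hapln1, described below, lay at percentile 39.2.

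Several neighbours in this order changed places between libraries. Ptprz1 lay above Bcan in 10 of 12 libraries, Bcan above Ncan in 10, Ncan above Tnc in 9 and Vcan above Cspg5 in 7. Tnc lay above Vcan and Cspg5 above Tnr in all 12. With the longest transcript as the length, Ptprz1 came to 303 CPM per kb and Cspg5, at 17.3, passed Vcan, at 16.4. Under that length Ptprz1 lay above Bcan in 11 of 12 libraries, Bcan above Ncan in 12, Ncan above Tnc in 8 and Vcan above Cspg5 in 6, so that how cleanly Bcan and Ncan part depends on the length used. The 8 genes together took 0.460 to 0.577% of all gene reads in a library.

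**Figure D1:**
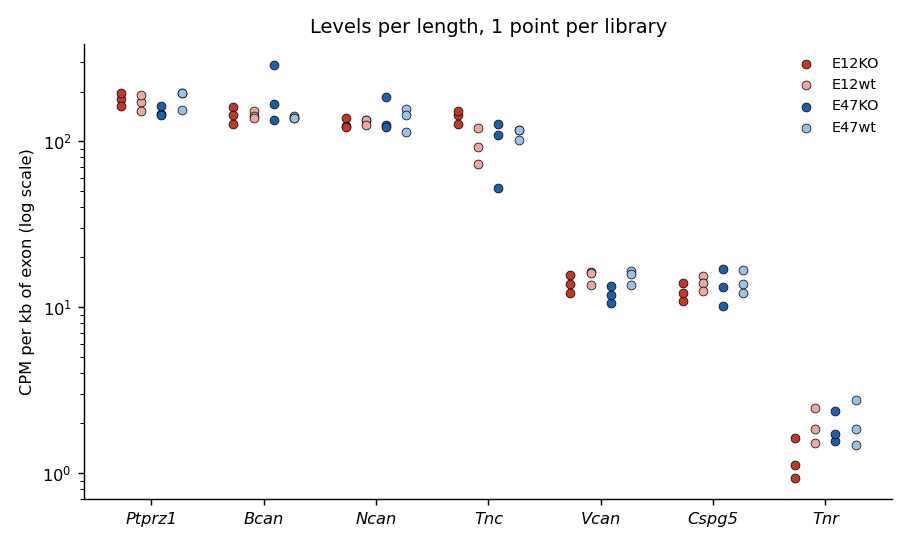
Level of each tested matrix gene in CPM per kb of exon (log axis), 1 point per library, coloured by group. Ptprz1, Bcan, Ncan and Tnc lie mostly above 100 CPM per kb, Vcan and Cspg5 between 10.2 and 16.9, and Tnr between 0.930 and 2.75.

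Hapln1, which clamps lecticans to hyaluronan, was close to absent. It had 0, 1 and 1 reads in E12KO, 1, 1 and 5 in E12wt, 1, 1 and 2 in E47KO and 0, 1 and 0 in E47wt libraries, 14 in all. In 11 of the 12 libraries this was below the floor of 3 reads, which stands for 0.0528 to 0.0869 CPM. It was too low to test, and no fold is given. The other link proteins were low as well. Hapln2 had at most 0.110 CPM in any library, Hapln3 had 0.623 to 1.68 CPM and Hapln4, the neighbour of Ncan, had 1.55 to 3.19 CPM.

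The genes differed in how much they varied between libraries of the same group. The within-group SD of log2 CPM was 0.40 for Tnc and 0.38 for Tnr, higher than for 88.8% and 87.5% of the 12587 genes that average at least 1 CPM. It was 0.30 for Bcan (77.5%), 0.24 for Cspg5 (65.9%), 0.21 for Ncan (57.2%), 0.16 for Vcan (40.4%) and 0.15 for Ptprz1 (36.6%). The highest library held 2.95 times the Tnr of the lowest, 2.91 times the Tnc and 2.28 times the Bcan, against 1.37 times the Ptprz1. Bcan varied this much through a single library: it had 684, 1180.1 and 548 CPM in E47KO and 577, 564 and 567 CPM in E47wt libraries.

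**Figure D2:**
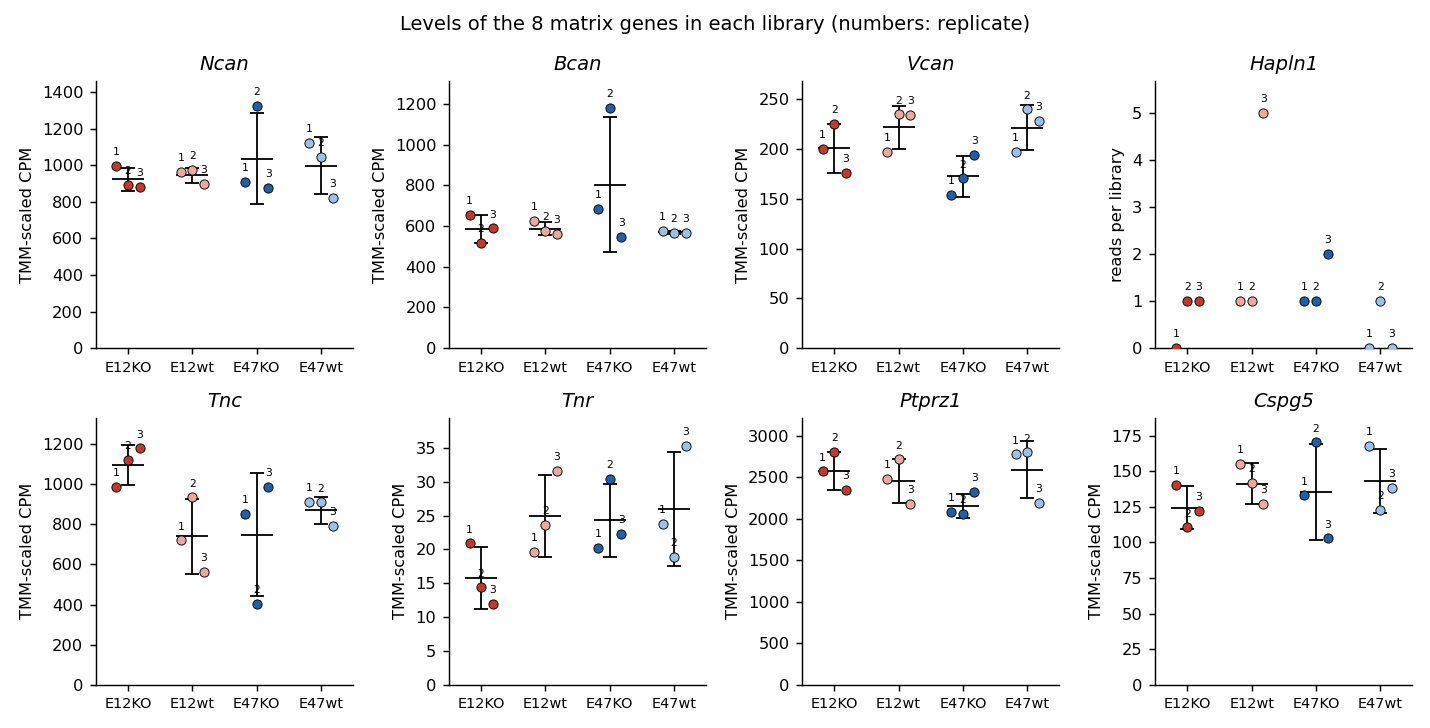
Level of each gene in every library, in TMM-scaled CPM (for Hapln1, in reads), by group; the number beside a point is its replicate, and bars give mean and SD of 3 libraries. Tnc and Tnr spread most, E47KO replicate 2 stands apart for Bcan, Ncan and Tnc, and Hapln1 reaches 5 reads in 1 library only.

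Cells lacking E12 were compared with their wild-type litter mates to find genes whose level differs in its absence. Among the tenascins, the fitted level was higher in E12KO for Tnc and lower for Tnr, and neither difference passed the test adjusted over all genes. Tnc had 986, 1119.5 and 1179 CPM in E12KO, against 720.2, 934 and 565 CPM in E12wt libraries. All 3 knockout values lay above all 3 wild-type values. The fitted difference was 1.49-fold, a log2 fold change of 0.57 ± 0.16 (SE; 95% interval 0.20 to 0.94; edgeR quasi-likelihood, Benjamini-Hochberg (BH) adjusted p = 0.507). Groups did not overlap, with E12KO the higher, for 6.47% of the 14755 genes tested, and in either direction for 13.6%. Without E12wt replicate 3, which stands apart from the other libraries, the log2 fold change of Tnc was 0.40 and that of Tnr, described next, was −0.46.

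Tnr had 20.9, 14.4 and 11.97 CPM in E12KO, against 19.6, 23.7 and 31.6 CPM in E12wt libraries. The groups overlapped through E12KO replicate 1 and E12wt replicate 1. The fitted level in E12KO was 0.634 of that in E12wt, a log2 fold change of −0.66 ± 0.23 (SE; 95% interval −1.17 to −0.14; edgeR quasi-likelihood, BH-adjusted p = 0.523). Tnc reads outnumbered Tnr reads 47.2, 77.8 and 98.5 times in E12KO libraries and 36.7, 39.5 and 17.9 times in E12wt libraries. The ratio restates the 2 values just given. In bulk RNA, fewer cells of a type and less RNA per cell cannot be told apart.

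The lecticans and the transmembrane proteoglycans differed less between E12KO and E12wt. Ncan had 996, 891 and 882 CPM in E12KO and 963, 973 and 900 CPM in E12wt libraries, a log2 fold change of −0.03 ± 0.07 with a 95% interval of −0.19 to 0.13. Bcan had 655, 517 and 589 CPM in E12KO and 624, 578 and 561 CPM in E12wt libraries, 0.00 ± 0.09 on the log2 scale (95% interval −0.20 to 0.21). For both genes the interval leaves no room for a change of the size fitted for Tnc. Vcan had 200.4, 225 and 176 CPM in E12KO and 197, 235 and 234 CPM in E12wt libraries, a log2 fold change of −0.14 ± 0.11. Ptprz1 had 2569, 2804 and 2345 CPM in E12KO and 2476, 2713 and 2179 CPM in E12wt libraries, 0.07 ± 0.10 on the log2 scale. Cspg5 had 141, 110.5 and 122 CPM in E12KO and 155, 142 and 127 CPM in E12wt libraries, −0.18 ± 0.10 on the log2 scale. All 5 overlapped between the groups.

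Among the 7 genes that could be tested, 0 were called at an adjusted p under 0.05, where edgeR called 0.0407% of all genes (6 of 14755). Tnc and Tnr, 2 of the 7, had an unadjusted p under 0.05, where 8.96% of all genes passed. DESeq2 called 1 of the 7, Tnc (log2 fold change 0.57 ± 0.15, BH-adjusted p = 0.0474), where it called 0.55% of all genes, and the adjusted p of Tnc ranged from 0.0474 to 1.00 over all alternatives. In the authors' deposited table, Tnc has a log2 fold change of 0.57 with an adjusted p of 0.0586, and Tnr one of −0.66 with an adjusted p of 0.194. The median log2 fold change of the 7 genes was −0.03, against 0.00 for all genes.

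The oligodendrocyte lineage markers were on the low side in the same libraries as Tnr. All 8 tested of the 9 listed had a fitted log2 fold change below 0 in E12KO, 4 of them with no overlap between the groups (13.6% of all genes did not overlap) and 0 called by edgeR (0.0407% of all genes were), with a median of −0.64 against 0.00 for all genes. Their summed level was 908 to 1116 CPM in E12KO and 1033 to 1528 CPM in E12wt libraries. Pdgfra, the growth factor receptor of oligodendrocyte precursors, had 34.7, 22.3 and 15.3 CPM in E12KO and 46.3, 44.8 and 93.3 CPM in E12wt libraries (log2 fold change −1.34 ± 0.35, BH-adjusted p = 0.507). Across all 12 libraries, Tnr and Pdgfra had their 3 highest values in the same 3 libraries: E12wt replicate 3, E47wt replicate 3 and E47KO replicate 2. Pdgfra is a single marker of the 9 listed and is named here after its values were seen. Its match with Tnr does not stand for the list. The myelin gene Mog was at 0 in 11 of 12 libraries. Neuronal markers were also lower in fitted value in 7 of 8 tested, while the astrocyte list had 5 of 8 above 0 and sums of 596 to 671 CPM in E12KO and 447 to 626 CPM in E12wt libraries. The part of these cell types in the tenascin values was not tested.

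**Figure D3:**
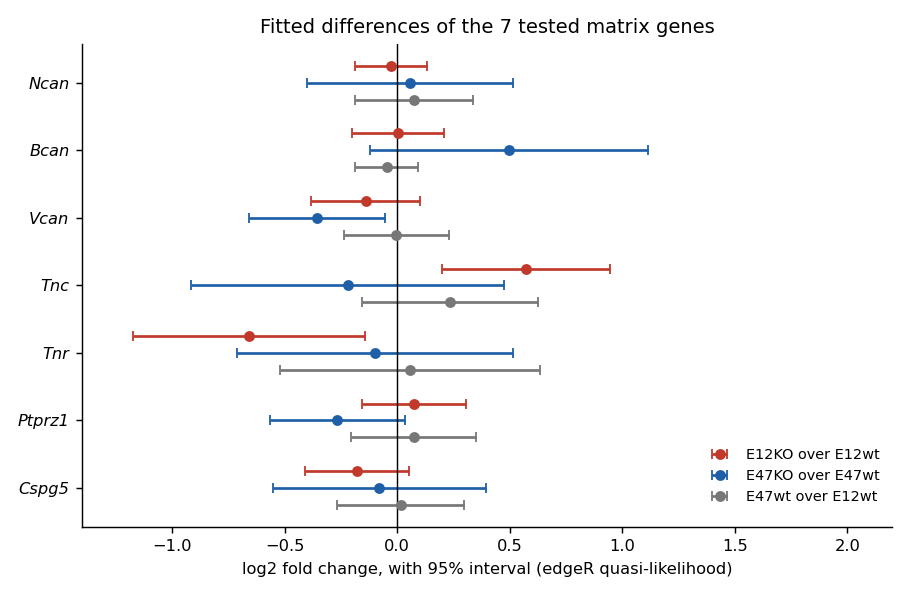
Fitted log2 fold changes of the 7 tested genes with 95% intervals (edgeR quasi-likelihood) for E12KO over E12wt, E47KO over E47wt and E47wt over E12wt. The intervals of Tnc and Tnr in E12KO and of Vcan in E47KO lie to 1 side of 0; the others cross it.

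Cells lacking E47 were compared with their own wild-type litter mates in the same way. Vcan was the gene whose groups did not overlap, and again no gene passed the adjusted test. Vcan had 154, 170.4 and 194 CPM in E47KO, against 197, 239.8 and 228 CPM in E47wt libraries. The highest knockout library, replicate 3, lay just under the lowest wild-type library, replicate 1. The fitted level in E47KO was 0.780 of that in E47wt, a log2 fold change of −0.36 ± 0.13 (SE; 95% interval −0.66 to −0.06; edgeR quasi-likelihood, BH-adjusted p = 0.971). Groups did not overlap, with E47KO the lower, for 3.88% of the 14965 genes tested, and in either direction for 7.89%. Set against the 1 male wild-type library, the mean of the male E47KO libraries was lower by a log2 difference of −0.47. The fit with sex as a covariate rests on that same library and restates this value, −0.47, so it is no second result. Without E47KO replicate 2 the log2 fold change of Vcan was −0.35.

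Bcan, as given above, stood at 1180.1 CPM in E47KO replicate 2 and at 548 to 684 CPM in the other E47KO libraries, against 564 to 577 CPM in E47wt libraries. Its log2 fold change of 0.50 ± 0.26 (95% interval −0.12 to 1.11) became 0.11 without that library. Tnc was at its lowest of all 12 libraries there, with 854, 405 and 987 CPM in E47KO and 911, 909.6 and 794 CPM in E47wt libraries. Its log2 fold change of −0.22 ± 0.30 became 0.08 without that library. Ncan had 908, 1325 and 875 CPM in E47KO and 1122, 1044 and 823 CPM in E47wt libraries, and its 0.06 ± 0.19 became −0.16 without that library. The same library also had the highest Cnp, an oligodendrocyte gene, and the highest Aqp4, an astrocyte gene, named here after their values were seen: 302 and 23.9 CPM, against at most 119.7 and 4.87 CPM in E47wt libraries. These are single genes picked from lists of 9 and 8 markers and do not stand for those lists, whose values by group follow.

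The marker lists as wholes were as follows in E47KO. The astrocyte list had 7 of 8 fitted values above 0, a median log2 fold change of 0.57, 2 markers higher with no overlap (7.89% of all genes did not overlap in either direction) and sums of 688 to 1014 CPM in E47KO and 544 to 739.5 CPM in E47wt libraries. The neuronal list had 7 of 8 below 0, a median of −0.33, 2 markers lower with no overlap and sums of 1094 to 1368 CPM in E47KO and 1365 to 1407 CPM in E47wt libraries. The oligodendrocyte lineage list went neither way, with 5 of 8 above 0, a median of 0.06, 0 without overlap and sums of 1098 to 1478 CPM in E47KO and 995 to 1438 CPM in E47wt libraries. None of these markers was called by edgeR. Their part in the Vcan, Bcan, Ncan and Tnc values was not tested.

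Ptprz1 had 2082, 2053 and 2321 CPM in E47KO and 2773, 2798 and 2192 CPM in E47wt libraries, a log2 fold change of −0.27 ± 0.13 (95% interval −0.57 to 0.03; edgeR quasi-likelihood, BH-adjusted p = 0.971). E47wt replicate 3 lay among the knockout values. Tnr had 20.2, 30.4 and 22.2 CPM in E47KO and 23.8, 18.9 and 35.3 CPM in E47wt libraries, −0.10 ± 0.26 on the log2 scale. Cspg5, a membrane proteoglycan of neurons and precursors, had 133, 170.3 and 103 CPM in E47KO and 168, 123.03 and 139 CPM in E47wt libraries, −0.08 ± 0.20 on the log2 scale. Set against the male wild-type library alone, the signs for Tnr and Cspg5 turned to log2 differences of 0.36 and 0.14.

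Of the 7 genes tested, edgeR called 0 in E47KO, where it called 0.0134% of all genes (2 of 14965). At an unadjusted p under 0.05 there was 1, Vcan, where 2.19% of all genes passed, and DESeq2 called 0 of the 7, where it called 0.0221% of all genes. The authors' deposited table gives Vcan a log2 fold change of −0.34 and all 7 genes an adjusted p of 0.999. The median log2 fold change of the 7 genes was −0.10, against −0.01 for all genes.

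**Figure D4:**
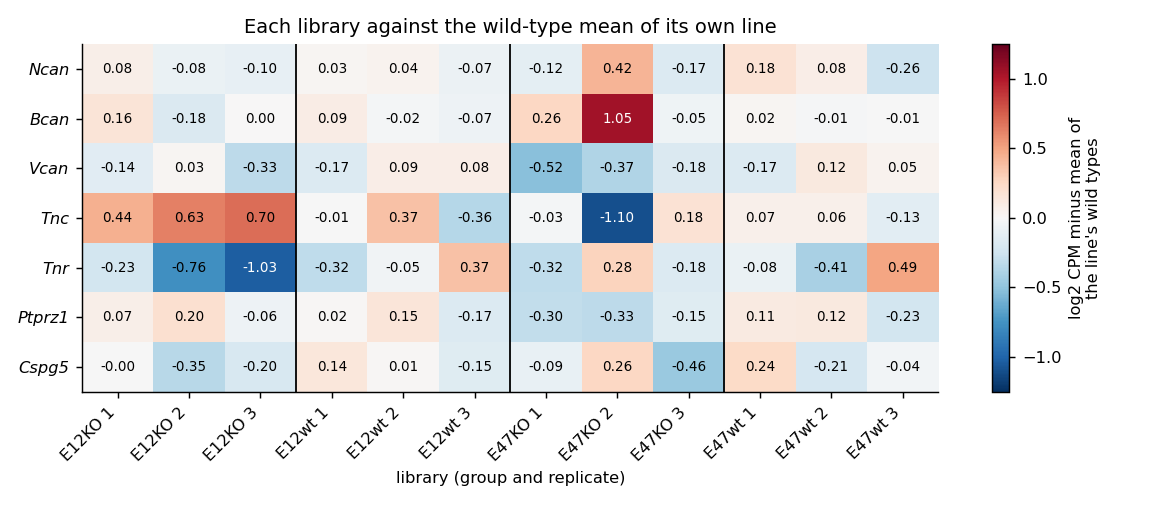
Log2 CPM of each tested gene in each library minus the mean log2 CPM of the wild-type libraries of its own line. Vertical lines part the groups. Tnc lies above 0 in all 3 E12KO libraries and at −1.10 in E47KO replicate 2, where Bcan lies at 1.05, and Vcan lies below 0 in all 3 E47KO libraries.

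Whether the knockouts of E12 and E47 differed in effect was tested as an interaction over all 12 libraries. By sex-linked reads the E12KO and E12wt libraries were all female, while E47KO was male and E47wt mixed. Sex therefore enters this difference through the E47 line and was not adjusted for. Tnc had the largest value, an E47KO effect minus E12KO effect of −0.78 ± 0.38 on the log2 scale (95% interval −1.61 to 0.04; edgeR quasi-likelihood, BH-adjusted p = 0.932), followed by Tnr at 0.56 ± 0.39, Bcan at 0.50 ± 0.30, Ptprz1 at −0.33 ± 0.17 and Vcan at −0.21 ± 0.17. Without E47KO replicate 2, Bcan came to 0.12 and Tnc to −0.48. None of the 7 was called by edgeR or DESeq2 or reached an unadjusted p under 0.05, where edgeR called 0% of all 15277 genes, 3.03% reached an unadjusted p under 0.05 and DESeq2 called 0.00422%. A difference in effect was not detected, and the intervals leave room for one of over 1 log2 unit for Tnc, Tnr (−0.28 to 1.41) and Bcan (−0.16 to 1.16).

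Wild-type cells of the E47 line were set against wild-type cells of the E12 line as a measure of the distance between lines without either knockout. By sex-linked reads E12wt was all female and E47wt mixed, so sex enters this distance and was not adjusted for. Tnc had the largest fitted difference, 0.23 ± 0.17 on the log2 scale (95% interval −0.16 to 0.62), with 911, 909.6 and 794 CPM in E47wt and 720.2, 934 and 565 CPM in E12wt libraries. The value for E12KO over E12wt, given above as 0.57, has the same E12wt libraries as denominator. The other 6 lay between −0.05 (Bcan) and 0.07 (Ncan). Without E12wt replicate 3 the Tnc value was 0.07 and Tnr, at 0.26, was the largest, and without E12wt replicate 2 the Tnc value was 0.44. None was called by edgeR or DESeq2, reached an unadjusted p under 0.05 or separated the groups, where edgeR called 0% of the 14892 genes, DESeq2 called 0.0266%, 3.81% reached an unadjusted p under 0.05 and 9.52% did not overlap.

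The make-up of the lectican set was also compared. Per kilobase of exon, Ncan gave 43.8 to 46.5% and Bcan 47.7 to 51.8% of the summed lecticans in E12KO libraries, against 44.5 to 46.1% and 48.4 to 51.0% in E12wt libraries. In the E47 line, Vcan gave 2.42 to 4.98% in E47KO and 4.37 to 5.85% in E47wt libraries, and Bcan 49.96 to 59.7% in E47KO and 45.6 to 51.7% in E47wt libraries. The 2.42% for Vcan and the 59.7% for Bcan belong to E47KO replicate 2.

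Around these genes, 84 others of the same pathway were listed by role. In E12KO, 78 could be tested, and 1 was called, against 0.0407% of all genes. Bgn, the small proteoglycan biglycan, fell in E12KO, with 0.174, 0.225 and 0.190 CPM against 2.16, 2.64 and 1.76 CPM in E12wt libraries (log2 fold change −3.45 ± 0.28, edgeR quasi-likelihood, BH-adjusted p = 0.00433). It was low in E47wt replicates 2 and 3 too, at 0.237 and 0.362 CPM. The fibroblast and meningeal markers did not all go the same way in E12KO. Of the 7 fibroblast and meningeal markers, 4 could be tested in E12KO, with a median log2 fold change of −3.02. Col1a1 (−1.83 ± 0.18, edgeR BH-adjusted p = 0.0105) and Col1a2 (−5.28 ± 0.44, edgeR BH-adjusted p = 0.00433) were called lower, Col3a1 was lower with no overlap (−4.21 ± 0.57, edgeR BH-adjusted p = 0.0686) and Foxc1 was higher with no overlap (0.45 ± 0.18). The list summed to 9.24 to 9.77 CPM in E12KO and 10.7 to 14.7 CPM in E12wt libraries. Its part in the Bgn value was not tested. An unadjusted p under 0.05 was reached by 11 of 78 (14.1%), where 8.96% of all genes passed, and 10 (12.8%) did not overlap, where 13.6% of all genes did not.

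By role, the median log2 fold change in E12KO was −0.15 for other proteoglycans, link proteins and tenascins, 0.07 for linker and chain synthesis, −0.05 for sulfation and epimerization, 0.06 for hyaluronan synthesis and turnover, −0.06 for receptors and binding partners and 0.03 for proteases, inhibitors and chain breakdown. Fitted values were above 0 for 10 of 13 chain synthesis genes and 6 of 7 hyaluronan genes, and below 0 for 13 of 19 receptors and partners. Has2, Cntn1 and Csgalnact1 are named here after their values were seen. Has2, which makes hyaluronan, had 8.52, 6.65 and 3.68 CPM in E12KO and 12.4, 12.6 and 12.7 CPM in E12wt libraries (log2 fold change −0.99 ± 0.25, BH-adjusted p = 0.507). These groups did not overlap, where 13.6% of all genes did not, and Has2 was not called. It was the only hyaluronan gene fitted below 0, and 1 other of that list had no overlap with E12KO the higher. Cntn1, the contactin that binds both Tnr and Ptprz1, had 130.3, 75.4 and 59.0 CPM in E12KO and 168, 130.02 and 217 CPM in E12wt libraries (−0.95 ± 0.28, BH-adjusted p = 0.507). Chst11, a sulfotransferase of the chondroitin chain, had a log2 fold change of −0.20 ± 0.06 and Csgalnact1, which starts that chain, one of 0.36 ± 0.12, both with an unadjusted p under 0.05.

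In E47KO, 77 of the 84 could be tested and edgeR called 0, against 0.0134% of all genes; 4 (5.19%) reached an unadjusted p under 0.05, where 2.19% of all genes (328) did, and 7 (9.09%) did not overlap, where 7.89% did not. The count over all genes moved to 1416 without E47KO replicate 3, 511 without E47KO replicate 2, 149 and 179 without E47wt replicates 1 and 2, 787 with all 12 libraries fitted, 493 with the replicate block and 98 with sex as a covariate. All 4 at an unadjusted p under 0.05 are named here, after their values were seen. Cntn1 had 78.8, 67.5 and 82.8 CPM in E47KO and 168, 106 and 157 CPM in E47wt libraries. These groups did not overlap (log2 fold change −0.91 ± 0.19, edgeR quasi-likelihood, BH-adjusted p = 0.971). Mmp14, a membrane protease of the matrix, had 44.8, 54.0 and 48.2 CPM in E47KO and 43.7, 33.5 and 33.5 CPM in E47wt libraries (0.41 ± 0.15, BH-adjusted p = 0.971), and these groups did not overlap either. The other 2 at an unadjusted p under 0.05 were the integrin Itga8 (−0.92 ± 0.37) and the adhesion molecule L1cam (−0.94 ± 0.40).

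Of the most abundant genes of each role, 12 in all, none was called in either comparison. In E12KO and in E47KO, the log2 fold change was −0.01 and −0.41 for Cspg4, the NG2 proteoglycan, and 0.36 and −0.12 for Sparcl1, a secreted glycoprotein. It was 0.13 and −0.36 for Xylt1, which adds the first sugar of the chain, 0.05 and −0.21 for Fam20b, which phosphorylates that linker, and −0.13 and 0.02 for Papss1, which makes the sulfate donor; Chst11 had −0.41 in E47KO. The hyaluronidase Cemip2 had 0.03 and −0.14 and the hyaluronan receptor Hmmr 0.06 and −0.10. Among partners, Ptn, a growth factor that binds Ptprz1, had −0.02 and 0.13, and the integrin subunit Itgb1 had 0.11 and −0.20. Timp3, a protease inhibitor, had −0.23 and 0.22 and Hexa, a lysosomal hexosaminidase, 0.22 and 0.23.

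**Figure D5:**
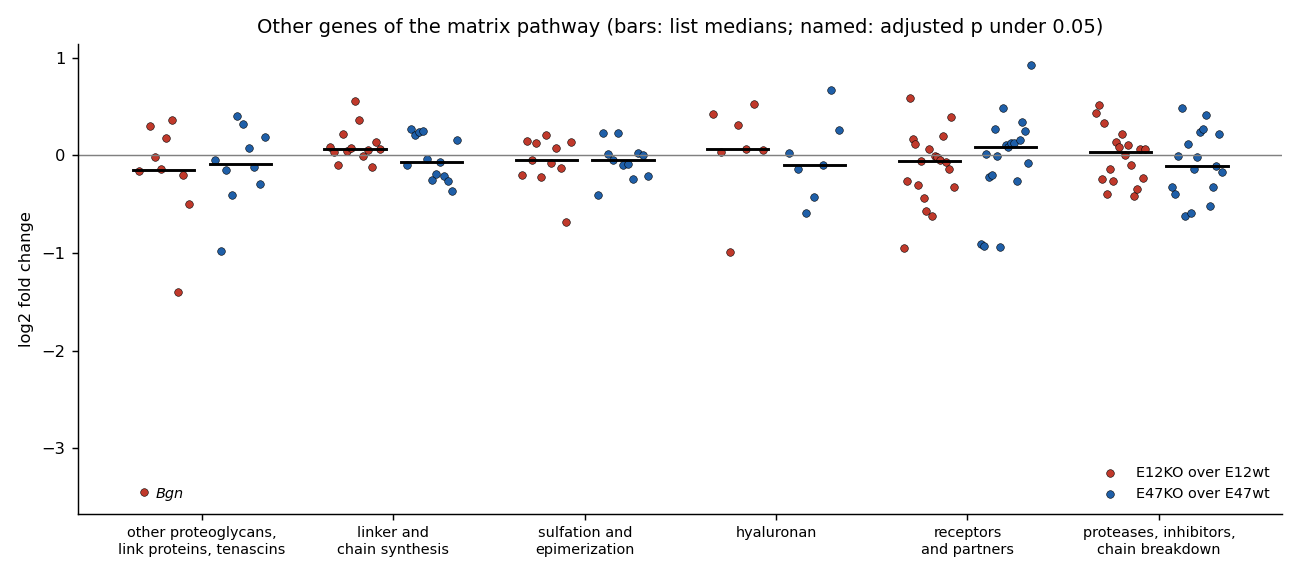
Fitted log2 fold changes of the other pathway genes by role, E12KO over E12wt and E47KO over E47wt, 1 point per tested gene, with list medians as bars. The medians lie between −0.15 and 0.08, and Bgn in E12KO, at −3.45, is the single gene called.

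For each gene, the 2 others with the most similar level over the 12 libraries were looked up among 12586 genes, by Pearson's r of log2 CPM and as a description only. For Ncan these were Kcnj10, an astroglial potassium channel (0.97), and Pip4k2c (0.96), for Bcan Psme1 and Mib2 (both 0.98), for Vcan Fam135a (0.93) and Zfp644 (0.90), and for Tnc Tanc1 and Prr5l (both 0.98). For Tnr they were Cacna2d2 (0.93) and Nol4l (0.92), for Ptprz1 Med13 and Zyg11b (both 0.92), and for Cspg5 Dlgap1 (0.94) and Camk2n1 (0.92). No 2 of the matrix genes shared a nearest gene. E47KO replicate 2 enters all of these values: without it, r was 0.82 for Psme1 and 0.89 for Mib2 with Bcan, and between 0.90 and 0.98 for the other 12 genes. Hapln1 was too low for such a comparison.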

How the data were processed

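Reads had been aligned to mouse build mm9 with STAR 2.5, per the submitters' processing notes. Which gene annotation was counted is not given in the sources used. The authors deposited raw read counts per gene for each of the 12 libraries, for both strands together and for each strand. The library kit was stranded, per the labels' protocols, so the opposite-strand counts were used; reads that name no gene (14.2 to 17.5%) were left out. The authors also deposited, for each knockout, a table with a signal per library (reads of both strands, scaled by 1 factor for each library), a log2 fold change, a score (the fold change over its standard error), p-values and adjusted p-values; DESeq2 and DESeq are named in the submitters' processing notes. No unmapped sample column was found.

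From the counts, edgeR 4.0.16 (R 4.3.3, limma 3.58.1) was run with filterByExpr, TMM scaling and the quasi-likelihood F test, 2-sided, within the 6 libraries of a comparison, or over all 12 for the interaction, with Benjamini-Hochberg adjustment at 0.05 over all genes tested. The SE is the fold change over the square root of F, with a 95% interval. It was tested on simulated data. CPM were TMM-scaled over all 12 libraries; a log2 CPM has a prior count of 2 and a fitted fold change one of 0.125. Levels between genes were compared per kilobase of the union of GRCm38 exons, and promoter sequences came from RefSeq (GRCm38.p6); no coordinates were moved between builds. Of the 37620 gene IDs, 32897 were named by the reference. Depth was 34515297 to 56835783 gene reads; floors of 3 reads cover counting error only.

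The 8 genes and all lists were chosen with earlier results of these data known. All 8 are named, and from each pathway list every called gene or otherwise the 2 with the highest mean CPM; further pathway genes and markers were named after their values were seen. An alternative fit with a replicate block took same-numbered replicates as pairs in every comparison. Deviations of same-numbered replicates from their group means had r = 0.100, 0.229 and 0.455 in the E47 line, where different-numbered ones had −0.329 to 0.148. In the E12 line, same-numbered ones had 0.0894, 0.0582 and −0.00797, and different-numbered ones −0.180 to 0.130. Between E47wt and E12wt, same-numbered ones had 0.0501, 0.257 and 0.281, though these are different lines. Other alternatives were DESeq2 1.42.0, RLE scaling, no filter, a fit of all 12 libraries, sex as a covariate, each library left out and, for levels, the longest transcript.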

Additional observations from a re-analysis of the deposited data

Results flagged for a closer look

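Among the reads on the strand not used for counting, Cspg5 had a higher share in each of the 3 E47KO libraries than in any E47wt library. Such reads made up 0.0802% of its reads in E47KO libraries (14 reads in all), against 0.0484% in E47wt libraries (9 reads). Other genes had a higher mean share in a knockout but overlapped between the groups or rested on 1 or 2 reads, such as Bcan with 0.0489% in E47KO and 0.0325% in E47wt libraries. These counts are small, and the differences were not tested. The Cspg5 value was picked out by looking through the tested genes in both lines. The share of all genes that part in this way was not computed, so this cannot be read as a result about Cspg5.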

How the results depend on the processing

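Of 378 alternative values for the 7 tested genes, 345 kept direction and side of the threshold, 32 changed sign and 1 passed it, Tnc in E12KO under DESeq2. The number of genes called in E12KO over E12wt was 6, and became 95 with DESeq2, 20 with no filter, 2 with all 12 libraries fitted and 2 to 10 with a library left out; of the 7 genes, DESeq2 called 1. In E47KO over E47wt the 2 became 5 with DESeq2, 1 with sex as a covariate and 0 to 7 with a library left out. Genes at an unadjusted p under 0.05 numbered 1322 in E12KO, with 569 to 2158 over the fits with a library left out, and 702 with all 12 libraries fitted. For the interaction the 0 became 1 with DESeq2 and 0 to 1 with a library left out, and between wild types the 0 became 6 with DESeq2 and 1 with all 12 libraries fitted. With the longest transcript, the highest level, that of Ptprz1, was 303 CPM per kb in place of 171. The cause of these shifts was not tested.

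Signs turned mostly for log2 fold changes close to 0. In E12KO, Bcan was −0.000357 with RLE scaling, −0.00188 with DESeq2, −0.00213 with no filter, −0.000732 in the fit with the replicate block and −0.00158 when all 12 libraries were fitted. In E47KO, sex as a covariate, which sets the knockouts against the only male wild-type library, gave Ncan −0.0106, Tnr 0.361 and Cspg5 0.138. With a library left out, values in E12KO ran from −0.0801 to 0.0828 for Bcan, −0.0839 to 0.00733 for Ncan and −0.0138 to 0.153 for Ptprz1. In E47KO they ran from −0.16 to 0.18 for Ncan, −0.45 to 0.0791 for Tnc, −0.29 to 0.20 for Tnr and −0.28 to 0.10 for Cspg5. For the interaction they ran from −0.12 to 0.21 for Ncan and −0.0891 to 0.28 for Cspg5. Between wild types they ran from −0.0144 to 0.197 for Ncan, −0.0832 to 0.0786 for Vcan, −0.228 to 0.260 for Tnr, −0.00731 to 0.183 for Ptprz1 and −0.110 to 0.109 for Cspg5. Tnc in E12KO lay between 0.40, without E12wt replicate 3, and 0.78, without E12wt replicate 2.

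With the replicate block edgeR called 4 genes in E12KO, and Vcan in E47KO was −0.36 ± 0.11 with an adjusted p of 0.866; the block changed no call among the 7 genes. Hapln1, at 14 reads in all, could not be fitted at this depth.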
